A study of Mus musculus with 4 samples.

Results

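Oligodendrocyte precursor cells (OPCs) made up 496 of the 30515 cortical nuclei examined, or 1.63% (95% Wilson interval 1.49 to 1.77%). A nucleus was taken as an OPC when it held at least 1 unique molecular identifier (UMI, the tag that counts 1 captured RNA molecule) of Pdgfra, UMIs of at least 3 of the 6 genes Pdgfra, Vcan, Cspg4, Neu4, Afap1l2 and Sox10, and no UMI of 4 genes that mark other cells, namely Slc17a7 in excitatory neurons, Gad1 in inhibitory neurons, Mog in mature oligodendrocytes and Csf1r in microglia. Only nuclei with at most 7000 detected genes and at most 1% of UMIs from mitochondrial genes were considered, which left 30515 of the 30784 deposited. The nuclei were thus chosen by the UMIs of these genes, whose levels are described below and not tested.

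The nuclei were isolated from the cortex of GCLC-KO mice, in which floxed Gclc (strain C57BL/6NTac-Gclctm1a(EUCOMM)Wtsi/WtsiCnbc) is removed by CaMKII-Cre. Gclc encodes the catalytic subunit of glutamate-cysteine ligase, the first enzyme of glutathione synthesis, and the CaMKII promoter drives Cre in forebrain excitatory neurons, so OPCs are not the cells in which the gene is meant to be deleted. There were 2 mice aged 3 months (3M-1 and 3M-2) and 2 aged 6 months (6M-1 and 6M-2), 1 library each, all of them Gclc-KO and untreated; no wild-type library was analysed here, so the comparisons below are between ages or between kinds of nuclei in knockout mice, and none of them measures an effect of the knockout. Cortical regions rich in rod-shaped microglia were dissected, and singlet nuclei positive for the DNA dye DAPI were sorted and sequenced with the 10x Genomics 3′ chemistry, which the labels give as v3.1 and the methods as version 3. With 2 mice per age, p-values measure only the spread between these mice. In the tests that pair nuclei of the same mouse, they measure only the spread of the differences within these mice.

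OPCs are the dividing, process-bearing glia of the adult brain that carry the platelet-derived growth factor receptor alpha and the proteoglycan NG2 (the product of Cspg4). They sense neuronal activity through glutamate and GABA receptors, and they either remain precursors or leave the cycle and pass through a short committed stage, marked by Gpr17, Bcas1 and Enpp6, before they make myelin. Growth factors such as PDGF, together with Notch, Wnt and BMP signals, are known to hold them back from that step, while the transcription factors Olig2, Sox10 and Myrf drive it.

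OPCs were found in all 4 libraries, as 146 of 6802 and 121 of 8750 nuclei at 3 months and as 132 of 8111 and 97 of 6852 nuclei at 6 months; here and below the first mouse of each age is 3M-1 or 6M-1, and values run from 3M-1 to 6M-2. The shares were 2.15% (95% Wilson interval 1.83 to 2.52%), 1.38% (1.16 to 1.65%), 1.63% (1.37 to 1.93%) and 1.42% (1.16 to 1.72%), intervals that cover counting error only. 3M-1 stood above the other mice and the 3 others lay close together, so the ages overlapped. The mean share at 6 months minus that at 3 months was −0.243 percentage points, less than the spread between the 3-month mice (exact permutation test, two-sided, n = 4 mice, p = 1, where 2 against 2 cannot give less than 0.33). Without 3M-1 the difference was 0.139 percentage points in the other direction. With every nucleus thinned to 2000 UMIs before the gate, and 683, 1386, 1422 and 941 shallower nuclei left out, the shares were 2.16, 1.34, 1.79 and 1.62%, and the difference was −0.0418 percentage points (exact permutation test, p = 1). Among nuclei with no UMI of Slc17a7, Gad1 or Gad2, a denominator that leaves most neurons out, the share was 5.29% at 3 months and 4.04% at 6 months (exact permutation test, p = 0.33).

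The 4 exclusion genes removed 346 of the 842 nuclei (41.1%) that met the marker condition, and they removed a similar part of each library, 39.9, 42.1, 39.7 and 43.3%. Of the 346 nuclei, 196 held Gad1, 171 held Slc17a7, 45 held Mog and 29 held Csf1r, and in 55 a single Slc17a7 UMI was the one excluding molecule. The nuclei lost had more UMIs than those kept, with medians of 5943, 5613, 8149 and 6195.5 against 4108.5, 2988, 3660.5 and 3923. Gad1 was the only excluded gene in 130 of the nuclei lost and Slc17a7 in 99. The inhibitory gate held 1807 nuclei over the series and the excitatory gate 9732. How many of the nuclei lost were pairs, OPCs with stray neuronal RNA, or OPCs that made these RNAs themselves was not tested. At the lower edge of the marker count, the 87 nuclei with exactly 3 of the 6 genes had a median of 11 of the 14 further OPC genes described below, the 31 just outside with exactly 2 had a median of 10, and the 37 with Pdgfra alone had a median of 1.

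**Figure D1:**
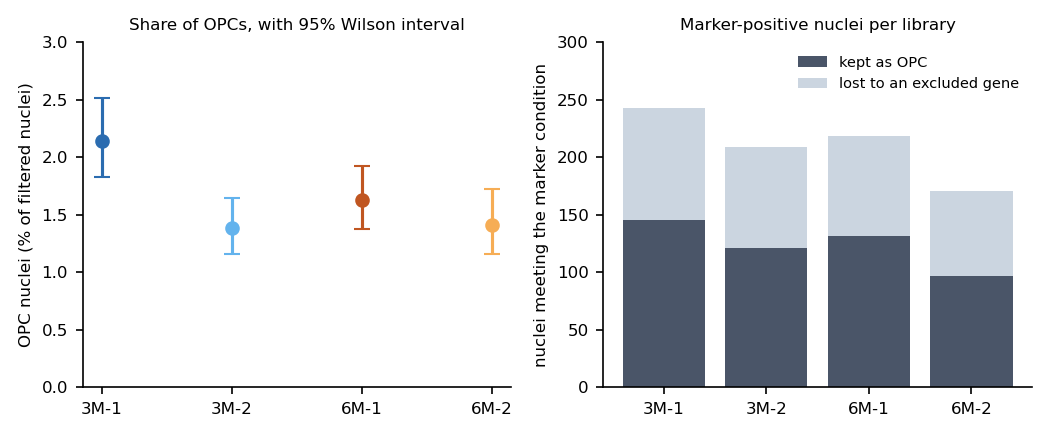
Share of OPCs among filtered nuclei per library with 95% Wilson intervals (left, in %) and the number of nuclei that met the marker condition per library, divided into those kept and those lost to an excluded gene (right). 3M-1 has the highest share (2.15%) and the other libraries lie between 1.38 and 1.63%, while 74 to 97 marker-positive nuclei were lost in each.

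The 496 nuclei held 1955642 UMIs, with 613995, 409445, 528347 and 403855 per mouse. The median OPC had 3704 UMIs (range 1002 to 23886), against library medians over all filtered nuclei of 8140, 5994, 7035 and 7592, so OPC nuclei were shallower than the typical nucleus of their own library. 3M-2 was the shallowest library for OPCs, with a median of 1761 detected genes against 2181, 1951.5 and 2119 in the other mice. No OPC barcode occurred in more than 1 library, whereas 93 barcodes of filtered nuclei were shared over all pairs of libraries. Levels are given below as CPM, the UMIs of a gene summed over the OPCs of a mouse per 1000000 UMIs of those OPCs, and a mean ± SD is over the 4 mice. 3M-1 stood apart in some genes: the predicted gene Gm42418 was at 523, 3085, 2794 and 2796 CPM in OPCs, and Cmss1 and AY036118, at 326, 1976, 1688 and 1364 CPM and 213, 1221, 1014 and 874 CPM, were low in it in the same way. Scrublet, which scores nuclei for their likeness to simulated pairs, called 3, 7, 8 and 1 OPCs doublets, 19 in all, and these were kept.

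The gate genes were at like levels in the 4 mice. Pdgfra (chromosome 5, 75152292 to 75198215, forward strand, GRCm38), the PDGF receptor that every counted nucleus had to show, was at 1140.1, 1133, 1384 and 1283 CPM. Vcan, encoding the matrix proteoglycan versican, was at 891, 916, 1014 and 1127 CPM, and Cspg4, encoding NG2, at 394, 254, 416 and 396 CPM, with 3M-2 the lowest for Cspg4. Neu4, encoding a sialidase, was at 182, 247, 223 and 196 CPM, and Afap1l2, encoding an actin-filament adaptor, at 222, 227, 208 and 238 CPM. Sox10, the transcription factor of the whole oligodendrocyte lineage, was at 638, 567, 441 and 547 CPM, and at 326 ± 42.6 CPM in mature oligodendrocytes (SD, n = 4 mice), the one gate gene that they share.

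The label held up against genes that the gate did not use. Of 14 further genes known from OPCs, the median OPC showed UMIs of 11, 11, 12 and 12 in the 4 mice, and no OPC showed fewer than 6. In mature oligodendrocytes, gated in the same way on Mog and related genes, the medians were 2, 1, 2 and 2; they were 4, 3, 4 and 5 in astrocytes and 5, 4, 5 and 5 in excitatory neurons, although the latter had median depths of 9346 to 13151.5 UMIs. Summed over the 14 genes, OPCs had 24922, 21463, 26187 and 26978 CPM, and no other class exceeded 6615 CPM in any mouse, the highest being astrocytes. The gate itself set OPCs apart from these classes, so the differences are given with no test.

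Lhfpl3, a gene of a tetraspan membrane protein, carried the largest part of this sum, 24.5% of its UMIs, with 6469, 4799, 6231 and 6789.6 CPM in OPCs and 60.7 ± 6.15 CPM in oligodendrocytes. Tnr, encoding the matrix glycoprotein tenascin-R, was at 3568, 2855, 4007 and 3885 CPM, and Pcdh15, encoding a protocadherin, at 3614, 3356, 3278 and 4021 CPM. 3M-2 had the lowest Lhfpl3 and Tnr of the 4 mice. Ptprz1, a receptor phosphatase that is also made by astrocytes, was at 2404 ± 203 CPM in OPCs and 1538 ± 159 CPM in astrocytes. 12 of the 14 genes were higher in the lowest OPC mouse than in any mouse of the 5 other classes; the exceptions were Luzp2, at 1738 ± 108 CPM in OPCs and 3142 ± 704 in astrocytes, and Olig1, at 134, 188, 225 and 203 CPM in OPCs against 90.9, 90.5, 172 and 115 CPM in oligodendrocytes.

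Genes were ranked by the lowest OPC mouse over the highest mouse of any other class. Among 3031 genes with at least 50 CPM in the OPCs of every mouse, 250 had a ratio above 1 and 12 a ratio above 10. The astrocyte class held only 113 nuclei, with 85395 to 127882 UMIs per mouse. A single astrocyte UMI was 11.7 CPM in 6M-1 and 9.84 CPM in 6M-2. The highest other value of C1ql1 and of Gpr17 was 1 such UMI, so their ratios rest on few molecules. The gene that marked OPCs most sharply was Kcnh8 (chromosome 17, 52602709 to 52979194, forward strand, GRCm38), encoding a voltage-gated potassium channel of the ether-a-go-go family, at 309, 286, 341 and 409 CPM in OPCs and 3.79 ± 3.18 CPM in oligodendrocytes, a ratio of 35.1. The next were Lhfpl3 (20.99), Scel (20.3), the predicted gene Gm42948 (19.96), Inava (18.9), Susd5 (16.2), Sema3d (14.9), Myt1 (14.9) and the non-coding A930009A15Rik (11.8). Gm42948 lies antisense within Lhfpl3, so its UMIs could in part belong to Lhfpl3. Sema3d encodes a secreted guidance protein, and Myt1 a zinc-finger factor of the oligodendrocyte lineage that was at 417, 359, 467 and 394 CPM in OPCs and 3.28 ± 2.16 CPM in oligodendrocytes. The other genes of the first 20 were C1ql1, Megf11, Stk32a, Gpr17, Cacng4, 6030407O03Rik, Ppfibp1, Emid1, Armh4, Tafa4 and C430049B03Rik, the last with a ratio of 5.86.

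**Figure D2:**
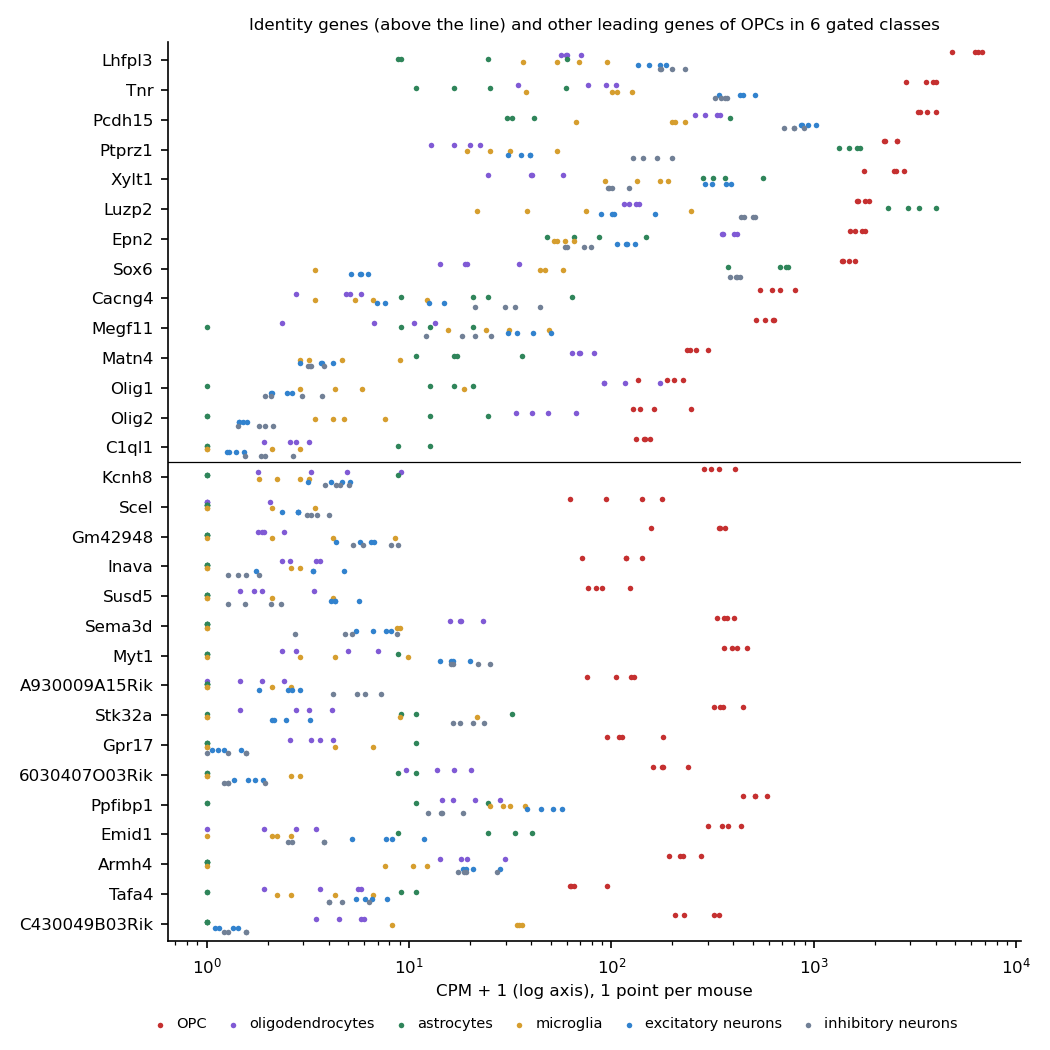
Levels of the 14 further OPC genes (above the line) and of the other genes among the 20 with the highest ratio (below it), as CPM + 1 on a log axis with 1 point per mouse and class. OPC points lie to the right of all other classes for every gene shown except Luzp2, where astrocytes are higher, and Olig1, where oligodendrocytes come close.

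Markers of vascular and meningeal cells were near 0 in the OPC sums, and those of glia and neurons were higher. The 8 leptomeningeal fibroblast markers (fibroblasts also express Pdgfra) gave 9 UMIs in all 496 nuclei, with Col1a1, Col1a2, Lum, Slc6a13, Slc22a6 and Col3a1 at 0, and summed to 0, 2.44, 13.2 and 2.48 CPM. The 6 pericyte markers gave 9 UMIs, with Rgs5 at 0, and the 6 endothelial markers 14, with Cldn5 and Ly6c1 at 0. The 8 microglia markers, all with a UMI, summed to 99.3, 188, 212 and 186 CPM, 56.0% of it P2ry12. The 8 astrocyte markers summed to 409, 415, 486 and 446 CPM, 62.9% of it Slc1a2, with Gja1 at 0. The 10 excitatory neuron markers, all with a UMI, summed to 658, 1038, 960 and 651 CPM, with Snap25 the most abundant (40.8%), so 3M-2 and 6M-1 carried more of them than 3M-1 and 6M-2. Of the 8 inhibitory neuron markers, Adarb2 made up 96.5% of 1498, 1334, 1459 and 1508 CPM.

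Several transcription factors separated precursors from mature cells. Olig2, needed to form the lineage, was at 137, 127, 246 and 161 CPM in OPCs and 46.3 ± 14.2 CPM in oligodendrocytes. Sox6 and Sox5, which hold precursors back from maturing, were at 1384, 1389.7, 1599 and 1498 CPM and 1202, 982, 1056 and 1025 CPM, against 20.8 ± 9.07 and 53.99 ± 18.6 CPM in oligodendrocytes. St18 and Myrf, factors of the maturing cell, were low in OPCs, at 21.2, 48.8, 30.3 and 9.90 CPM and 24.4, 19.5, 17.03 and 19.8 CPM, against 3203 ± 252 and 188 ± 13.1 CPM in oligodendrocytes. Zfp536, at 235 ± 14.2 CPM in OPCs, was likewise higher in oligodendrocytes (2217 ± 302 CPM), and the astrocyte factor Sox9 had 0, 4.88, 1.89 and 0 CPM in OPCs. In contrast, the 12 genes of myelin and mature oligodendrocytes summed to 290, 330, 401 and 327 CPM in OPCs and to between 14548 and 16877 CPM in oligodendrocytes. The levels in OPCs of Ugt8a, an enzyme of myelin lipid synthesis, at 81.4, 97.7, 98.4 and 102 CPM against 3.68 ± 0.829 CPM in excitatory neurons, and of Bcas1, at 474, 493, 806 and 473 CPM against 1.78 ± 0.755 CPM, stood above those of neurons in every mouse.

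Whether any gene changed between 3 and 6 months was tested on the UMI sums of the 4 mice with edgeR's quasi-likelihood test. None of 7759 genes passed an adjusted p of 0.05 (0% of the genes tested; smallest adjusted p = 0.140), and 346 genes, 4.46%, had an unadjusted p under 0.05, 173 higher and 173 lower at 6 months (2.23% each). DESeq2 on the same sums called 2 genes, Csnk2a2 and Kcnip3, both higher at 6 months. With the batch number that the labels give to 1 mouse of each age entered as a block, edgeR called 17 genes (0.219%), 13 higher and 4 lower. The replicate differences of the 2 ages had a correlation of −0.0561 in OPCs, a value that does not decide whether the batch acted. Leaving out 1 mouse gave 30 calls without 3M-1, 65 without 3M-2, 2 without 6M-1 and 10 without 6M-2.

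The genes named in this paragraph, apart from Cfap20, and Hes5 and Vegfa below come from the calls of DESeq2 or of the fit with the batch block. They were chosen after their values were seen, and each kept its ages apart in CPM. None passed in edgeR on the full sums of the 4 mice with the filter on low counts and no block; without that filter edgeR also called Csnk2a2, Kcnip3, Epas1, Hes5 and Vegfa, and after thinning Csnk2a2 and Kcnip3. Csnk2a2 (chromosome 8, 95446096 to 95490039, reverse strand, GRCm38), encoding a catalytic subunit of casein kinase 2, was at 186, 181, 485 and 391 CPM, a log2 fold change of 1.28 ± 0.20 (SE, adjusted p = 0.14 in edgeR and 1.35e-05 with the block). Both 6-month mice lay well above both 3-month mice, and in oligodendrocytes the levels were 64.1, 49.2, 49.9 and 63.1 CPM, with no such order (adjusted p for the difference between the cell types = 0.0618, edgeR). Cfap20, called by neither fit and named as its neighbour downstream on the same strand (95420249 to 95434869), was at 249, 271, 447 and 399 CPM (log2 fold change 0.72, edgeR adjusted p = 0.962), and whether reads of the 2 genes were exchanged was not tested. Kcnip3, encoding a calcium-binding partner of A-type potassium channels, was at 384, 315, 784 and 607 CPM (log2 fold change 1.00 ± 0.20). The hypoxia-responsive factor gene Epas1 was at 78.2, 65.9, 193 and 151 CPM (log2 fold change 1.26), and Ccnd1, encoding the G1 cyclin D1, at 34.2, 53.7, 123 and 89.1 CPM (1.34). Abtb2, encoding an ankyrin-repeat and BTB-domain protein, was at 412, 281, 657 and 557 CPM (0.81). For all 5 genes the lowest 6-month mouse was above the highest 3-month mouse. The genes were chosen with these values seen, so this is no separate result. The share of all genes tested that keep their ages apart is not given here. With 2 mice against 2, such a separation cannot give an exact permutation p under 0.33.

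In the other direction, the Notch effector gene Hes5 (chromosome 4, 154960923 to 154962371, forward strand) was at 143, 286, 71.9 and 94.1 CPM, a log2 fold change of −1.33 ± 0.32 (SE, adjusted p = 0.595 in edgeR and 0.00229 with the block). Vegfa (chromosome 17, 46016993 to 46032369, reverse strand), encoding the vascular growth factor VEGF-A that OPCs and astrocytes make, was at 218, 188, 115 and 64.4 CPM, a log2 fold change of −1.13 ± 0.27 (SE, adjusted p = 0.595 in edgeR and 0.0101 with the block). Both 6-month mice lay below both 3-month mice for the 2 genes, although for Hes5 the 3-month mice themselves lay far apart. The rest of the 17 calls were Pou3f1 (39.1, 53.7, 170.3 and 64.4 CPM), Aldh1a1 (4.89, 2.44, 24.6 and 37.1 CPM), Galntl6 (219.9, 75.7, 534 and 203 CPM), Cmss1, AY036118 and 5 predicted genes. Galntl6 overlapped between the ages, and Aldh1a1 rested on 3 and 1 UMIs at 3 months. Cmss1, AY036118 and the predicted gene Gm42418 were low in 3M-1 alone, as given above.

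**Figure D3:**
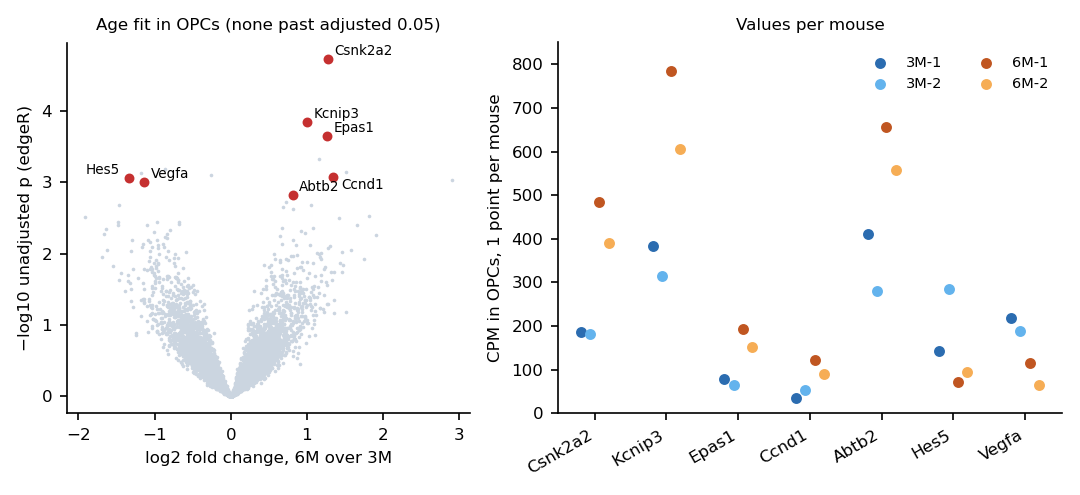
Age comparison in OPCs. Left, log2 fold change of 6 over 3 months against −log10 of the unadjusted edgeR p, 1 point per gene with genes past ± 4 left out, and 7 named genes in red; right, CPM of the 7 genes with 1 point per mouse. The 7 genes were chosen after their values were seen, so that their ages do not overlap is no separate result. None passes an adjusted p of 0.05 in the edgeR fit shown, with the filter on low counts and no block.

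Among the growth factor ligands, 6 of 14 genes passed the filter on low counts, 5 of them above 0 (median log2 fold change 0.13 against 0 over all genes tested), and Vegfa alone had an unadjusted p under 0.05. Nrg3 and Nrg1, the neuregulins read by ErbB receptors, were at 1459, 1592, 1728 and 1518 CPM and 705, 777, 789 and 778 CPM, below the 5497 ± 339 and 3482 ± 125 CPM of excitatory neurons, and Igf2 was at 0. Of 15 receptors besides Pdgfra, 9 were tested (6 above 0, median 0.09 by age, Insr at an unadjusted p under 0.05). The neuregulin receptor Erbb4 gave 48.5% of the UMIs of this list, at 2272, 2037, 2231 and 2295 CPM, and the FGF receptor Fgfr2 was at 655, 777, 837 and 879 CPM, against 2078 ± 138 CPM in oligodendrocytes. The neurotrophin receptors Ntrk2 and Ntrk3 were at 507, 462, 407 and 438 CPM and 588, 572, 511 and 688 CPM, and both 6-month mice lay below both 3-month mice for Ntrk2 (edgeR adjusted p = 0.992) but not for Ntrk3.

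Of the 14 genes that brake or report receptor tyrosine kinase signals, 11 were tested, 8 lay above 0 (median log2 fold change 0.28) and Ccnd1 and Spry4 had an unadjusted edgeR p under 0.05. Etv4, Etv5 and Etv1, ETS factors switched on by ERK, were at 344, 151, 223 and 230.3 CPM, 130.3, 109.9, 184 and 146 CPM and 140.1, 176, 168 and 210.5 CPM; Etv4 in oligodendrocytes was at 1.92 ± 1.23 CPM. Spry4, an inhibitor of the pathway, was at 19.5, 21.98, 51.1 and 27.2 CPM and Spry1 at 24.4, 36.6, 41.6 and 47.05 CPM, whereas Spry2 was at 45.6, 53.7, 34.1 and 27.2 CPM with the 6-month mice the lower. The inhibitors did not order the ages alike.

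Ion channels and transmitter receptors were detected broadly in OPCs. All 22 glutamate receptor genes had UMIs, and of the 20 tested by age 9 lay above 0 (median log2 fold change −0.05), with Grm3 at an unadjusted p under 0.05. The AMPA receptor subunit Gria2, which makes the channel impermeable to calcium, was at 1775, 1727, 1575 and 1726 CPM, and Gria4 at 821, 755, 763 and 921 CPM. Grm5, encoding a metabotropic receptor, was at 1029, 872, 886 and 1082 CPM. The NMDA subunit Grin3a was at 471, 408, 396 and 458 CPM, against 41.2 ± 7.09 CPM in excitatory neurons, whereas Grin2a and Grin2b, at 63.5, 183, 142 and 59.4 CPM and 86.3, 252, 179.8 and 71.8 CPM, were highest in 3M-2 and 6M-1, the mice whose OPCs held most excitatory neuron markers. Whether neuronal RNA gave those 2 values was not tested.

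All 11 GABA-A subunit genes had UMIs, and of the 10 tested 6 lay above 0 (median 0.09), with Gabrg3 and Gabra4 at an unadjusted p under 0.05. Gabrg3 was at 373, 300.4, 471 and 451 CPM and Gabrb1 at 339, 303, 201 and 299.6 CPM, and the ages did not overlap for either gene, although neither passed an adjusted p of 0.05 in edgeR. All 16 voltage-gated and potassium channel genes were tested, 10 lay above 0 (median 0.08) and none had an unadjusted p under 0.05. Kcnd2, encoding the A-type potassium channel Kv4.2, gave 47.7% of the UMIs of this list, at 3223, 3297, 3799 and 3798 CPM in OPCs against 1672 ± 193 CPM in excitatory neurons and 239 ± 86.1 CPM in oligodendrocytes. The inward rectifier genes Kcnj16 and Kcnj10 were at 52.1, 63.5, 71.9 and 76.8 CPM and 37.5, 51.3, 53 and 61.9 CPM.

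The extracellular matrix list was another strong feature, with 11958, 10199, 13199.7 and 12564 CPM over its 22 genes, 29.9% of it Tnr. Of the 16 genes tested, 11 lay above 0 by age (median 0.13), Tnr and Timp4 had an unadjusted p under 0.05 and were higher at 6 months, and Acan was lower. Xylt1, the enzyme that starts chondroitin sulfate chains, was at 2490.2, 1761, 2788 and 2548 CPM, and Cspg5, encoding a proteoglycan, at 1009.8, 1038, 1143 and 1097 CPM. Acan, encoding aggrecan, was low, at 32.6, 34.2, 13.2 and 14.9 CPM. In the guidance and adhesion list, 18 of 20 genes were tested, 12 lay above 0 (median 0.08) and Slit2 had an unadjusted p under 0.05. Nlgn1, encoding a synaptic adhesion protein, was at 4275, 3998, 4580.3 and 4113 CPM, and Dcc, a netrin receptor, at 1625, 1321, 1471 and 1810.1 CPM.

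Notch, Wnt and BMP genes were sparse, with 12 of 22 tested, 6 above 0 (median 0.02), Hes5 lower and Hes1 higher at an unadjusted p under 0.05. The receptor Notch1 was at 74.9, 58.6, 45.4 and 99.05 CPM, its ligand Dll1 at 29.3, 24.4, 32.2 and 37.1 CPM, and the effector Hes1 at 17.9, 46.4, 54.9 and 56.95 CPM. Hes1 was low in 3M-1 alone and Hes5 high in 3M-2, so the 2 effectors of the same pathway did not order the mice alike. Rnf43, a target and inhibitor of Wnt signalling, was at 145, 149, 109.8 and 176 CPM, against 4.88 ± 5.86 CPM in astrocytes, and Lef1 and Id1 had no UMI. Among all 17 lineage transcription factors tested, 6 lay above 0 (median −0.22); Olig2 and Hes1 were higher and Sox4 (138, 97.7, 66.2 and 79.2 CPM) and Hes5 lower at an unadjusted p under 0.05. Of the 14 OPC genes outside the gate, 13 lay above 0 (median 0.22), with Olig2 and Tnr at an unadjusted p under 0.05. Over every list, 18 of 197 tested genes had an unadjusted p under 0.05, beside 4.46% of all genes.

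Glutathione genes bear on the model, although Cre acts in neurons. Gclc itself was at 26.1, 24.4, 20.8 and 29.7 CPM in OPCs, from 49 UMIs, and at 34.1 ± 4.32 CPM in oligodendrocytes and 37 ± 4.03 CPM in excitatory neurons; 3′ counts need not report the deleted exons, so these values do not check the deletion. Of 18 glutathione genes 6 were tested, 4 lay above 0 (median 0.33) and Ggt7, a gamma-glutamyl transferase homologue, had an unadjusted p under 0.05, at 81.4, 100.1, 62.5 and 34.7 CPM. Gsr, glutathione reductase, was at 21.2, 34.2, 45.4 and 29.7 CPM, and Gpx4, which removes lipid peroxides, at 17.9, 21.98, 22.7 and 27.2 CPM. Of 18 genes of the Nrf2 response, iron and ferroptosis, 9 were tested and 7 lay above 0 (median 0.39), with the peroxiredoxin gene Prdx1, at 24.4, 21.98, 37.9 and 49.5 CPM, at an unadjusted p under 0.05. Fth1, the ferritin heavy chain, was at 58.6, 90.4, 92.7 and 96.6 CPM in OPCs and 451 ± 148 CPM in oligodendrocytes, and Trf, transferrin, at 17.9, 9.77, 26.5 and 24.8 CPM and 1148 ± 129 CPM. The integrated stress and p53 list (3 of 17 tested) and the immediate early list (4 of 12 tested) had no gene at an unadjusted p under 0.05.

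A few OPCs carried a large part of the cell cycle UMIs. The 23 genes gave 409 UMIs in the 496 nuclei, and 8 nuclei with UMIs of at least 5 of the genes (2, 2, 1 and 3 by mouse, at most 15 genes in 1 nucleus) held 40.6% of them. Top2a, the topoisomerase of S and G2 phase, had 52 UMIs in 16 nuclei, and Ccnb1 had none. A share of nuclei depends on depth, so each nucleus was thinned at random to 1000 UMIs, and no OPC had to be left out. UMIs of at least 2 cell cycle genes then stood in 0.685, 2.48, 0.758 and 2.06% of OPCs, and before thinning in 8.22, 15.7, 7.58 and 11.3%. The thinned share in oligodendrocytes was 0.142, 0.381, 0.174 and 0.238%, of 706, 525, 1149 and 841 nuclei, after 17, 58, 15 and 1 nuclei under 1000 UMIs had been left out. The ages overlapped, with a difference of −0.172 percentage points (exact permutation test, two-sided, n = 4 mice, p = 1) that changed sign without 3M-2 (0.725) or without 6M-1 (0.480).

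Gpr17, the receptor of the committed stage, was at 94.5, 178, 108 and 111 CPM, highest in 3M-2. After thinning, 10.3, 18.2, 6.06 and 4.12% of OPCs held a UMI of it, and before thinning 29.5, 42.1, 32.6 and 35.1%. In oligodendrocytes the thinned share was 0.283, 0.190, 0.261 and 0.119% (median depth before thinning 2985, 1956, 2094 and 2436 UMIs), and in excitatory neurons 0.0854, 0, 0 and 0%. The thinned share was lower in both 6-month mice, with a mean difference of −9.14 percentage points (exact permutation test, two-sided, n = 4 mice, p = 0.33, the smallest possible), but neither the unthinned shares (p = 1) nor the CPM followed that order, so no order by age is read from it. The difference was −5.18 without 3M-2, −5.30 after thinning to 2000 UMIs and −1.86 with no excluded genes in the gate. Of the 12 genes of the committed stage 9 were tested, 4 lay above 0 (median −0.21), and none had an unadjusted p under 0.05. Bmp4 was at 8.14, 24.4, 5.68 and 9.90 CPM and Enpp6 at 0, 4.88, 11.4 and 0 CPM.

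Reactive and immune genes were low in OPCs, with 8 of 27 passing the filter, 4 above 0 (median 0.09) and none at an unadjusted p under 0.05. C3, Cxcl10, Osmr and Cd44 had no UMI. C4b, encoding complement component 4, was at 17.9, 36.6, 37.9 and 47.05 CPM, and Serpina3n, encoding a serine protease inhibitor, at 1.63, 2.44, 7.57 and 4.95 CPM. After thinning, 2.74, 0.826, 5.30 and 6.19% of OPCs held a UMI of either gene (unthinned 6.16, 10.7, 15.2 and 14.4%), against 2.55, 2.67, 22.2 and 24.6% of oligodendrocytes and 0.213, 0.0661, 0.0941 and 0.494% of excitatory neurons. Both 6-month mice were above both 3-month mice, by 3.96 percentage points on average (exact permutation test, two-sided, p = 0.33, the smallest possible); with at least 4 markers in the gate the difference was −0.404. The class I gene H2-D1 was at 26.1, 41.5, 28.4 and 24.8 CPM, with the ages overlapping.

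Whether OPCs differed from mature oligodendrocytes in how genes moved with age was tested as the interaction of cell type and age, with the mouse as a block. 2 of 11366 genes (0.0176%) passed an adjusted p of 0.05, Abtb2 higher and Prr16 lower in OPCs relative to oligodendrocytes (0.0088% each), and 649 (5.71%) had an unadjusted p under 0.05, of which 2.55% of all genes lay in the higher and 3.16% in the lower direction. Abtb2 (chromosome 2, 103566310 to 103718423, forward strand, GRCm38) was higher at 6 months in OPCs, at 412, 281, 657 and 557 CPM, and lower in oligodendrocytes, at 130.0, 110.3, 80.4 and 71.4 CPM. The log2 difference between the 2 age changes was 1.60 ± 0.24 (SE; adjusted p = 0.00846, edgeR), and the ages did not overlap in either cell type. Prr16, a gene linked to cell size, was at 179, 193, 140.1 and 141 CPM in OPCs and 16.4, 15.9, 76.5 and 41.6 CPM in oligodendrocytes, with the ages apart in both, a difference of −2.12 ± 0.33 (SE; adjusted p = 0.00854, edgeR). The age change of Prr16 in OPCs taken alone passed in no setting and ran from −0.67 to 0.28 on the log2 scale, so the call is one of the difference between the cell types and not of a fall in OPCs. With the mice unpaired no gene passed, and the calls numbered 19 without 3M-1, 102 without 3M-2, none without 6M-1 and 18 without 6M-2.

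None of the reactive and immune genes tested in this way passed the threshold, and C4b and H2-D1 had an unadjusted edgeR p under 0.05. C4b had the smallest adjusted p of the list. Only 8 of its 27 genes were tested by age in OPCs alone, so no count over the list is read. Such an unadjusted p was also found in 5 of 21 glutamate receptor genes and 5 of 20 guidance and adhesion genes, beside 5.71% of all genes. In oligodendrocytes C4b was at 29.5, 17.5, 247 and 323 CPM, far above 3 months in both 6-month mice, against 17.9, 36.6, 37.9 and 47.05 CPM in OPCs, a log2 difference of −2.68 ± 0.49 (SE; adjusted p = 0.0537, edgeR). H2-D1 was at 1.82, 6.35, 24.4 and 21.9 CPM in oligodendrocytes and 26.1, 41.5, 28.4 and 24.8 CPM in OPCs, a difference of −2.84 ± 0.60 (SE; adjusted p = 0.112). Csnk2a2 had a log2 difference of 1.41 ± 0.28 (SE; adjusted p = 0.0618). Each of the 3 genes passed in 4 of the 10 settings, among them no filter on low counts, at least 4 markers in the gate and without 6M-2; C4b passed also without 3M-1, and H2-D1 and Csnk2a2 without 3M-2.

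**Figure D4:**
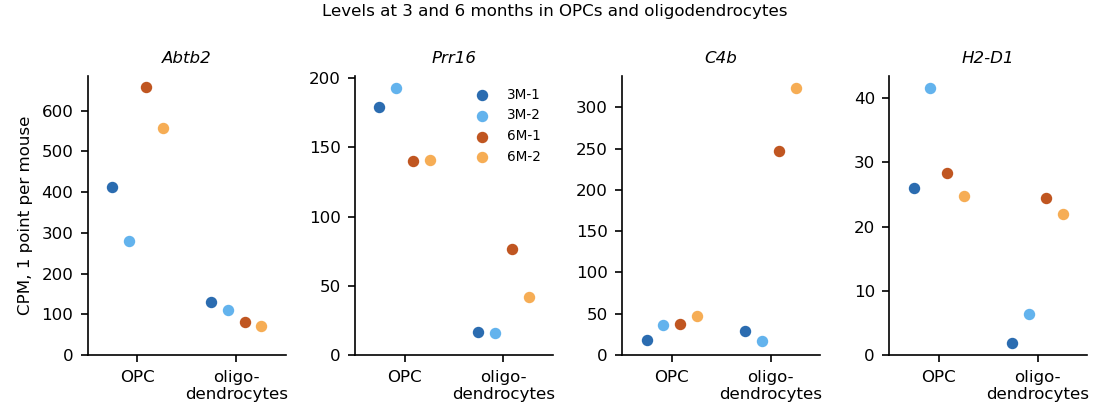
CPM of Abtb2, Prr16, C4b and H2-D1 in OPCs and oligodendrocytes with 1 point per mouse, 3-month mice in blue and 6-month mice in orange; the axes differ between panels. Abtb2 is higher at 6 months in OPCs and lower in oligodendrocytes, while C4b reaches 247 and 323 CPM at 6 months in oligodendrocytes and at most 47.05 CPM in OPCs.

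Within each mouse, OPCs with a Gpr17 UMI were compared with those without one, 43 against 103, 51 against 70, 43 against 89 and 34 against 63 nuclei. Gpr17 itself was left out, and edgeR's quasi-likelihood test with the mouse as a block called 5 of 5246 genes (0.0953%), 1 higher (0.0191%) and 4 lower (0.0762%) in Gpr17-positive nuclei, with 299 (5.70%) at an unadjusted p under 0.05, 2.92% higher and 2.78% lower. Bcas1 (chromosome 2, 170346991 to 170427845, reverse strand, GRCm38), a marker of cells on the way to myelination that overlaps antisense transcripts, was higher: 731, 649, 1085 and 513 CPM with Gpr17 and 351, 375, 644 and 448 CPM without. It was higher in all 4 mice, least in 6M-2, with a log2 fold change of 0.73 ± 0.12 (SE; adjusted p = 0.00123). The muscarinic receptor gene Chrm3 was lower, at 25.2, 28.2, 41.1 and 32.5 CPM with Gpr17 and 76.99, 103, 147 and 60.02 CPM without, a log2 fold change of −1.60 ± 0.30 (SE; adjusted p = 0.00485). Hs3st4, encoding a heparan sulfate sulfotransferase, had 5.04, 62.1, 15.4 and 19.5 CPM and 9.62, 249.8, 44.9 and 40.02 CPM (log2 fold change −1.70 ± 0.35, SE; adjusted p = 0.0169), with few UMIs. Ptprd, encoding a receptor phosphatase, had 777, 1366, 699 and 838 CPM and 1068, 1731, 1509.6 and 976 CPM (log2 fold change −0.53 ± 0.10, SE; adjusted p = 0.00678). The fifth gene, the synaptic vesicle gene Syt1, had 161, 209, 231 and 234 CPM with Gpr17 and 229, 418, 638 and 220.1 CPM without. It was lower with Gpr17 in 3 of 4 mice, so it is named here outside the rule that asks for the same direction in every mouse. Syt1 is itself 1 of the excitatory neuron markers, whose sum was lower with Gpr17 in every mouse, as given below. Whether neuronal RNA gave the 4 lower calls was not tested.

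Of the committed stage list, 7 genes were tested, all 7 lay above 0 (median log2 fold change 0.35 against 0.01 over all genes tested), and 5, Bcas1, Sirt2, Fyn, Itpr2 and Tns3, had an unadjusted p under 0.05, beside 5.70% of all genes. Fyn, a kinase that starts myelin protein synthesis, was at 514, 514, 519 and 259.9 CPM with Gpr17 and 342, 383, 356 and 312 CPM without (log2 fold change 0.38). Itpr2, a calcium release channel, was at 545, 570.0, 705 and 617 CPM and 508, 405, 518 and 524 CPM (0.32). Of these 5 genes only Bcas1 passed after adjustment over all genes. Of the 14 OPC genes outside the gate, 11 lay above 0 (median 0.09), and Tnr and Sox6 had an unadjusted p under 0.05 (log2 fold changes 0.23 and 0.24), both higher with Gpr17 in every mouse. None of the 2 cell cycle and 3 myelin genes tested had an unadjusted p under 0.05. Gpr17-positive nuclei were deeper in every mouse, with median UMIs of 4145, 3401, 4140 and 4280.5 against 4077, 2615, 3229 and 3833, and their excitatory neuron markers summed to 635, 812, 720 and 637 CPM against 669, 1210, 1099 and 660. After thinning to 1000 UMIs no gene passed, without the Scrublet doublets Bcas1 alone passed, and with the mice unpaired none did. DESeq2 made none of the 5 calls. With a mouse left out, Bcas1 was lost without 3M-1, Syt1 without 3M-2, and Chrm3, Ptprd and Syt1 without 6M-1. Hs3st4 was not among the calls without 3M-2, but it had a value in only 7 settings, against 11 for Bcas1.

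**Figure D5:**
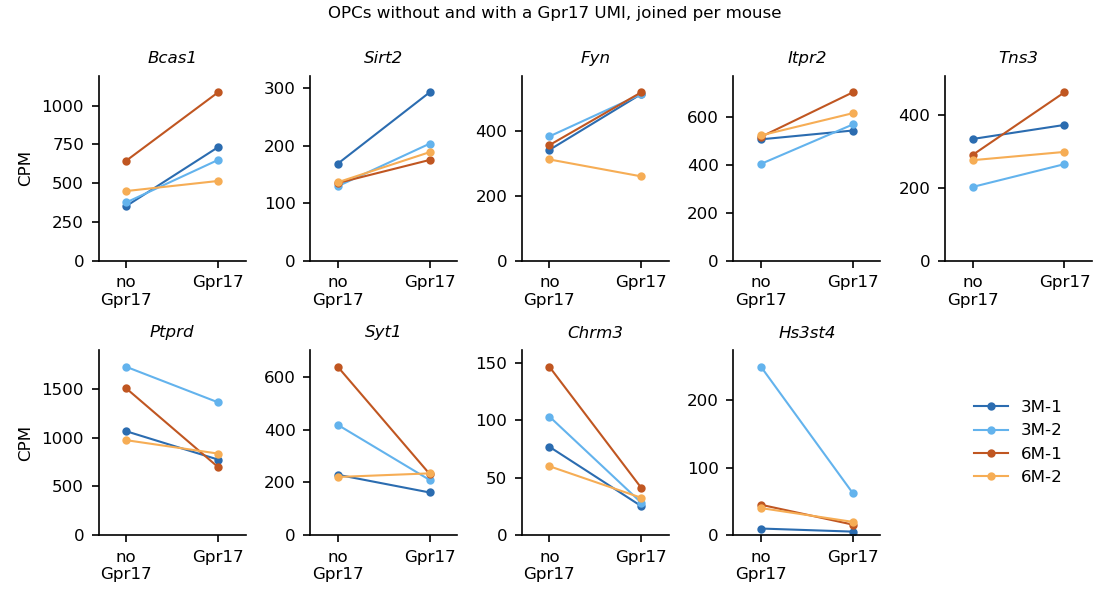
CPM of Bcas1, Sirt2, Fyn, Itpr2, Tns3, Ptprd, Syt1, Chrm3 and Hs3st4 in OPCs without and with a Gpr17 UMI, a line per mouse. The committed stage genes lie higher with Gpr17 in every mouse except Fyn in 6M-2, and Chrm3, Ptprd and Hs3st4 lie lower.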

How the data were processed

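Single-nucleus RNA-seq was made from 1 cortex library of each of 4 mice, with nuclei as the unit counted and the mouse as the replicate. Per the file headers the deposited values are UMI counts of each gene in each nucleus, written by Cell Ranger 7.0.0 and not normalized by the authors, and the submitters' processing notes name the mm10 build; all columns were mapped (0 unmapped). The annotation version was not given in the sources used here, so coordinates came from GENCODE M21 (GRCm38), which holds 32158 of the 32285 identifiers in the files. Groups came from the labels. Members and gene lists (27 lists, 379 genes) were chosen with earlier results of these data known.

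Other classes were gated like the OPCs: oligodendrocytes on Mog, astrocytes on Aqp4 or Gja1, microglia on Csf1r with at least 3 of 6 markers each, and neurons on at least 2 UMIs of Slc17a7 or Gad1, always without the markers of the others. No cell annotation was used. UMIs were summed per mouse and tested with edgeR 4.0.16 (TMM, filterByExpr, quasi-likelihood test, Benjamini-Hochberg over all genes tested, threshold 0.05) in R 4.3.3; DESeq2 1.42.0, RLE scaling, no filter, other gates, thinning, doublet removal (scanpy 1.11.5) and each mouse left out were alternatives. The study's own test over nuclei was replaced, because nuclei of 1 mouse are not replicates. Shares were compared by exact permutation over mice (scipy 1.17.1, Python 3.11.15), with 95% Wilson intervals; shares of OPCs with given genes were compared after thinning to 1000 UMIs, and the OPC share of all nuclei without thinning.

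The text names the gate genes, listed genes, up to 12 genes per direction past the threshold with the same direction in every mouse (for ages, groups that do not overlap), leaving out mitochondrial, ribosomal and predicted genes, and the 20 genes with the highest ratio of OPCs to other classes. The labels give the batch number 1 to one mouse of each age and 2 to the other, and the batch block used that number. The replicate differences of the 2 ages had a correlation of −0.0561 over 7759 genes in OPCs. Counting noise in sparse genes can bring such a value toward 0, so it does not decide whether the mice were paired. On simulated sums with known changes, the age test recovered 43% of genes changed 2-fold and 95% of those changed 4-fold, the test between Gpr17 classes 94 and 100%, and the test between cell types 12 and 74%, with 10, 8 and 4 false calls. The changed genes were drawn only from the better counted ones, and the simulated spread followed the level of a gene. Both cell types were simulated with the same gene shares. The rates therefore need not hold for sparse genes or for the real cell types.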

Additional observations from a re-analysis of the deposited data

Results flagged for a closer look

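In 2 genes the age difference in OPCs differed from that in oligodendrocytes by the test of the difference itself. For Abtb2 the log2 age difference in OPCs exceeded that in oligodendrocytes by 1.60 (standard error 0.24, adjusted p = 0.00846, edgeR), with 412, 281, 657 and 557 CPM in OPCs and 130, 110, 80.4 and 71.4 CPM in oligodendrocytes (the 3-month mice first), with the ages apart in both cell types. For Prr16 it was lower by −2.12 on the same scale (standard error 0.33, adjusted p = 0.00854, edgeR), while its age change in OPCs alone passed in no setting and ran from −0.67 to 0.28. Both calls were kept with RLE scaling, without the filter on low counts, with at least 4 markers and without 3M-1, 3M-2 or 6M-2, Abtb2 also with DESeq2; neither was made with the mice unpaired or without 6M-1. What differs between the cell types was not tested.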

How the results depend on the processing

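By age, edgeR called 0 genes with RLE scaling, at least 4 or at least 2 markers, and without doublets. It called 12 with no filter, 17 with the replicate block, 2 with no excluded genes in the gate (the predicted genes Gm21860 and Gm32647), 3 after thinning (Csnk2a2, Kcnip3 and Malat1), 2 with DESeq2, and 2 to 65 with 1 mouse left out. The test between OPCs and oligodendrocytes called 29 genes with no filter, 9 with at least 4 markers, 1 with DESeq2, 0 with no replicate block, and 0 to 102 with 1 mouse left out. Between Gpr17 classes it called 12 with no filter, 1 with DESeq2 (Malat1), 0 with no replicate block (120 of 4239 genes at an unadjusted p under 0.05), 0 after thinning (79 of 1494), 1 without doublets, and 4 to 17 with 1 mouse left out. Where a mouse was left out, 1 age had a single mouse, assumed to vary like the others. The causes were not tested.

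The difference in the share of OPCs with C4b or Serpina3n was −0.404 percentage points with at least 4 markers. With 1 mouse left out, the difference was −0.625 to 0.139 for the OPC share, −1.07 to 0.725 for cell cycle genes and −13.1 to −5.18 for Gpr17. Abtb2 and Prr16 between cell types, and the 5 genes called between Gpr17 classes, kept their direction under every alternative that gave them a value. By age, Gm42418 ran from −0.11 to 2.43 on the log2 scale, Cmss1 from −0.34 to 2.24, AY036118 from −0.34 to 2.16, Gpr17 from −0.85 to 0.23, H2-D1 from −0.60 to 0.05 and Prr16 from −0.67 to 0.28, so their direction depended on the setting. The OPCs of a mouse hold 403855 to 613995 UMIs, and 2 mice per age cannot give a permutation p under 0.33.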
